A study of Mus musculus with 8 samples.

Results

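Collagens, laminins and integrins are the genes that build the extracellular matrix and the receptors that bind it. Their RNA was followed in ureteric bud cells of newborn mice that lacked Dot1 and in wild-type cells. A gene was a member when a probe of the array named a RefSeq transcript of a mouse gene whose symbol starts as that of a collagen chain, a laminin chain or an integrin subunit. The genes described here are 82 with 116 probes, of 37018 genes and unnamed transcripts in all. They comprised 43 collagens, 10 laminins, 25 integrins and 4 genes that share only the start of an integrin's name (Itgb1bp1, Itgb1bp2, Itgb3bp and Itgbl1). Of the 82, 70 were bright enough to be tested, beside 23343 genes and transcripts tested in all. Col12a1, Itga10 and Itgae, which also carry such a symbol in RefSeq, were not analysed here.

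The KO group held 4 samples of DOT1-null ureteric bud cells from mice in which Dot1, the histone H3 lysine methyltransferase gene also written Dot1l, was deleted in Hoxb7-positive cells. The WT group held 4 control samples of wild-type cells. All 8 samples were GFP-positive ureteric bud cells sorted by flow cytometry from kidneys of C57BL/6 mice at postnatal day 0. The driver of the deletion, the source of the GFP, and the number of animals or litters behind a sample are not stated in the labels. Each sample was labelled with Cy5 and hybridised with Cy3-labelled RNA of WT 3, so a value here is a log2 ratio to WT 3 RNA, with no dye swap. On the WT 3 array both dyes carried the same RNA, and the members read between -0.63 and 0.97 there, the offset of each probe between the dyes. Levels are therefore compared between arrays for 1 gene, and between genes only the pattern over the arrays is set side by side.

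Basement membranes are thin sheets under epithelia, built of a type IV collagen network and a laminin network joined by nidogens and perlecan. A laminin is a trimer of an alpha, a beta and a gamma chain, and a type IV collagen molecule is a trimer of alpha chains. Interstitial collagens form fibres and microfibrils between cells and are made mostly by mesenchymal cells. Integrins are pairs of an alpha and a beta subunit that bind laminins, collagens or fibronectin. In the developing kidney the ureteric bud is an epithelium on such a basement membrane, and signals between it and the surrounding mesenchyme drive its branching.

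Several libraries stood apart from their group. On the first principal component of all genes with a value on every array, which held 55.8% of the variance, KO 2 lay at -19.89, within the WT range of -25.72 to -18.40, while the other KO arrays lay between 24.16 and 50.21. KO 3 had 8392 spots marked as uneven or as outliers, against 363 to 448 spots on the other 7 arrays, and 95.2% of its spots stood well above background in Cy5, against 52.4% to 68.9%. Dot1l itself read 0.35, 0.032, -0.041 and 0.30 in KO 1 to KO 4, against 0.027, -0.054, -0.11 and 0.069 in WT 1 to WT 4, and the groups overlapped. Its difference was 0.18 ± 0.11 (SE, limma adjusted p = 0.342), and no source used here places the probe inside or outside the deleted stretch. The KO arrays shared a row of the slide and the WT arrays shared another, so row and genotype cannot be told apart. All 19 ureteric bud and collecting duct markers were detected on every array, but so were 12 of 15 stromal, 11 of 11 endothelial, 13 of 13 macrophage and leukocyte, 7 of 7 nephron progenitor and 6 of 6 podocyte markers. Calls are given with all 8 arrays and without KO 2, KO 3 or both. KO 2 was set apart by these same values. Leaving out a KO array that lies among the WT arrays tends to widen KO minus WT and to narrow the KO spread. P-values of fits without KO 2 are therefore biased towards passing, and those calls describe the remaining arrays only.

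With all 8 arrays, 0 of the 70 members passed the test for KO minus WT (limma, Benjamini-Hochberg adjusted over all genes, threshold 0.05), where 2 of all 23343 genes did (0.00857%). At an unadjusted p under 0.05 there were 9 members, 6 higher and 3 lower in KO, beside 24.1% of all genes (2434 higher and 3182 lower). The KO and WT values did not overlap for 3 of 70, namely Col14a1, higher in KO, and Itgal and Itgb5, lower in KO, beside 11.8% of all genes (4.22% higher and 7.62% lower). Without KO 2, 12 of 70 passed, 7 higher and 5 lower, beside 21.2% of all genes (10% higher and 11.2% lower). The 7 were Lama5, Lamb1, Lama1, Col18a1, Itga6, Itgam and Col14a1, and the 5 were Col15a1, Itga5, Itga1, Itgb2 and Lama4. With KO 2 left out, every KO value lay above every WT value for 7 of 70 members, beside 3473 of all 23343 genes. Every KO value lay below every WT value for 8 members, beside 4568 of all genes. Without KO 3, 0 of 70 passed, beside 0.0343% of all genes. Without KO 2 and KO 3, 10 of 70 passed, 9 higher and 1 lower, beside 23.6% of all genes (3149 higher and 2361 lower). Of these 10, Col20a1, Col25a1, Col27a1 and Itga9 had not passed without KO 2 alone. Differences below are of 4 KO and 4 WT arrays, or of 3 KO and 4 WT arrays without KO 2, unless a missing value is named. The share of members called stayed below that of all genes in each of these fits.

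Among the laminins, Lama5, Lamb1 and Lama1 read high on 3 of the 4 KO arrays. Lama5, the alpha chain found in most mature epithelial basement membranes, read 0.59, -0.076, 0.48 and 0.80 in KO 1 to KO 4, against -0.21, -0.052, -0.15 and 0.045 in WT 1 to WT 4. KO 1, KO 3 and KO 4 lay above all WT arrays and KO 2 lay within the WT range. The difference was 0.54 ± 0.17 (SE, limma adjusted p = 0.126), and without KO 2 it was 0.71 ± 0.11 (SE, limma adjusted p = 0.00391). Over 22 alternatives to the fit of all arrays, which include the fit without KO 2, limma adjusted p ran from 0.00293 to 0.755.

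Lamb1, the beta chain that pairs with several alpha chains during development, read 0.099, -0.54, 0.35 and 0.41 in KO 1 to KO 4, against -0.36, -0.48, -0.18 and -0.41 in WT 1 to WT 4. Lama1, the alpha chain of early epithelial basement membranes, read -0.049, -0.81, 0.23 and -0.057 in KO 1 to KO 4, against -0.70, -0.63, -0.44 and -0.59 in WT 1 to WT 4. In both genes KO 1, KO 3 and KO 4 lay above every WT array and KO 2 lay below every WT array. The difference was 0.44 ± 0.19 (SE, limma adjusted p = 0.200) for Lamb1 and 0.42 ± 0.20 (SE, limma adjusted p = 0.226) for Lama1. Without KO 2 both rose. Lamb1 rose by 0.65 ± 0.11 (SE, limma adjusted p = 0.00603) and Lama1 by 0.63 ± 0.11 (SE, limma adjusted p = 0.00586). These p-values were the lowest over 22 alternatives to the fit of all arrays, which include the fit without KO 2. The highest limma adjusted p was 0.412 for Lamb1 and 0.415 for Lama1. The promoters of the laminin genes Lama5 and Lamb1, whose RNA was high on the same 3 KO arrays, are shown as RefSeq gives them on GRCm38.p6, from 250 bases before the transcript start to 50 after it. Lama5 lies at chr2:180225810-180226109 on the minus strand and Lamb1 at chr12:31265043-31265342 on the plus strand, and capitals mark matches on either strand to CCAAT or GGGCGG.
Lama5 promoter: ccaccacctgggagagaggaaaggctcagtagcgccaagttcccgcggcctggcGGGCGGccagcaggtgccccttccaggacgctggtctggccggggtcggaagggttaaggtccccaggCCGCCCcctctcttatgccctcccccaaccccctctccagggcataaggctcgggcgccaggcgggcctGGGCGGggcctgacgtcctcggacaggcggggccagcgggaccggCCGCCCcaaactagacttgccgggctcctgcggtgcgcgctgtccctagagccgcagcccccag
Lamb1 promoter: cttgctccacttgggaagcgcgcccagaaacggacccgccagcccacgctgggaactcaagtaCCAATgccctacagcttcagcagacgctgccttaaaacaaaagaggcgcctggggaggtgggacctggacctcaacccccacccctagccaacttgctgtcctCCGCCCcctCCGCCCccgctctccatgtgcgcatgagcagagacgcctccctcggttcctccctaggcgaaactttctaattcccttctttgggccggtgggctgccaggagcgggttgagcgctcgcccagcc

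The Lama5 window held 4 matches to GGGCGG, the GC box, and none to CCAAT, and the Lamb1 window held 1 match to CCAAT and 2 to GGGCGG. Over all 32851 promoters of the table, 35.7% hold GGGCGG and 37.4% hold CCAAT on either strand. TATAAA, in 13.6% of all promoters, and TGAGTCA or TGACTCA, in 5.20%, had no match in either window. These matches describe letters in the windows and nothing was measured at them.

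The direction of these 3 laminins depended on how the arrays were scaled. With each array centred on its median in place of the intensity-dependent loess curve, the median difference of all genes was -0.30, all 10 laminins lay below 0, and Lama5 read -0.13, Lamb1 -0.33 and Lama1 -0.30. Relative to that shift, Lama5 lay 0.17 above all genes, Lamb1 lay at -0.030 and Lama1 at -0.0044. With Cy5 alone, where the median of all genes was -0.17, the differences were 0.49 for Lama5, 0.30 for Lamb1 and 0.31 for Lama1. None of these values passed the test.

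Other chains were read on the same arrays. Lamb3, the beta chain of the epithelial laminin found at hemidesmosomes, read 0.33, 0.24, 0.25 and 0.56 in KO 1 to KO 4, against 1.49, 1.13, -0.28 and 1.03 in WT 1 to WT 4. Its KO arrays lay between 0.24 and 0.56, while WT 3 lay below them and the other WT arrays above 1. The difference was -0.50 ± 0.32 (SE, limma adjusted p = 0.366). Lama3, the alpha chain of the same laminin, read 0.27, 0.10, 0.24 and 0.53 in KO 1 to KO 4, against 0.60, 0.35, 0.033 and 0.57 in WT 1 to WT 4, with a difference of -0.10 ± 0.14 (SE, limma adjusted p = 0.686), and its second probe gave -0.11. Lamc1, a gamma chain found in most tissues, read -0.27, -0.46, 0.042 and -0.026 in KO 1 to KO 4, against -0.31, -0.30, -0.35 and -0.18 in WT 1 to WT 4. These values overlapped, with a difference of 0.11 ± 0.12 (SE, limma adjusted p = 0.606) that turned to -0.57 under median centring.

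Lamb2, the beta chain of mature kidney basement membranes, read 0.34, 0.65, 0.42 and 0.56 in KO 1 to KO 4, against 0.31, 0.55, 0.47 and 0.86 in WT 1 to WT 4, with a difference of -0.055 ± 0.13 (SE, limma adjusted p = 0.821) and overlapping groups. Lama4, the alpha chain of vessel basement membranes, read -0.0091, 0.90, 0.21 and 0.16 in KO 1 to KO 4, against 0.53, 1.05, 0.39 and 1.13 in WT 1 to WT 4. KO 2 lay among the WT arrays, and KO 1, KO 3 and KO 4 lay below all of them. Lama4 was -0.46 ± 0.23 (SE, limma adjusted p = 0.251) with 8 arrays. It fell without KO 2, by 0.65 ± 0.19 (SE, limma adjusted p = 0.0371, 0.0371 to 0.460 over 22 alternatives to the 8-array fit). Lama2, the alpha chain of muscle and mesenchyme, read -0.32, 1.01, 0.19 and 0.20 in KO 1 to KO 4, against 0.58, 0.74, 0.017 and 0.73 in WT 1 to WT 4, highest on KO 2, and its difference was -0.25 ± 0.27 (SE, limma adjusted p = 0.591), or -0.50 without KO 2, which did not pass. Lamc3, a less common gamma chain, had a difference of -0.19 ± 0.095 (SE, limma adjusted p = 0.248). Of the 10 laminins, all tested, 4 lay above 0 and 6 below, with a median of -0.080 beside -0.022 for all genes, and without KO 2, 3 rose and 1 fell, beside 10% higher and 11.2% lower of all genes.

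**Figure D1:**
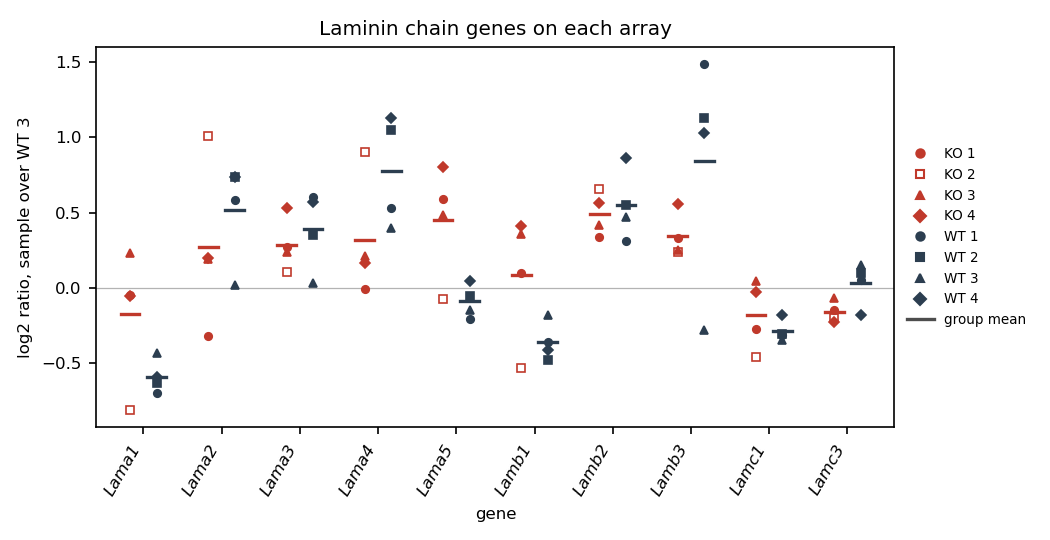
Log2 ratio to WT 3 RNA of laminin chains on each array, KO arrays in red on the left of each gene with KO 2 as an open square, WT arrays dark on the right, and a bar at each group's mean. In Lama5, Lamb1 and Lama1 the KO 2 square sits with the WT arrays or below them.

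Among the basement membrane collagens, Col4a1 and Col4a2, the chains of the type IV network present in every basement membrane, overlapped between the groups. Col4a1 read 0.63, 0.87, 0.90 and 0.84 in KO 1 to KO 4, against 0.67, 0.69, 0.61 and 1.16 in WT 1 to WT 4. Col4a2 read 0.30, 0.72, 0.73 and 0.68 in KO 1 to KO 4, against 0.53, 0.55, 0.59 and 0.88 in WT 1 to WT 4. WT 4 was the highest array for both genes and KO 1 was the lowest KO array for both. The difference was 0.030 ± 0.13 (SE, limma adjusted p = 0.910) for Col4a1 and -0.032 ± 0.12 (SE, limma adjusted p = 0.899) for Col4a2. The genes lie head to head, and their windows are shown because the same stretch carries both starts. In RefSeq on GRCm38.p6 the Col4a1 window is chr8:11312777-11313076 on the minus strand and the Col4a2 window chr8:11312555-11312854 on the plus strand. Capitals mark the 78 bases that lie in both windows, read from opposite strands, and the starts are 21 bases apart.
Col4a1 promoter: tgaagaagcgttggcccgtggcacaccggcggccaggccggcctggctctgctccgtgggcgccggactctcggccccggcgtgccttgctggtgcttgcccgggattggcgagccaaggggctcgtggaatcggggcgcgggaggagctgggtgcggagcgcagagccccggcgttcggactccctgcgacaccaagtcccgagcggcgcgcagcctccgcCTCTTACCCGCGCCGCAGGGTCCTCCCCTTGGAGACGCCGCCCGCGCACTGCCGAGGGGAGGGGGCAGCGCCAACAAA
Col4a2 promoter: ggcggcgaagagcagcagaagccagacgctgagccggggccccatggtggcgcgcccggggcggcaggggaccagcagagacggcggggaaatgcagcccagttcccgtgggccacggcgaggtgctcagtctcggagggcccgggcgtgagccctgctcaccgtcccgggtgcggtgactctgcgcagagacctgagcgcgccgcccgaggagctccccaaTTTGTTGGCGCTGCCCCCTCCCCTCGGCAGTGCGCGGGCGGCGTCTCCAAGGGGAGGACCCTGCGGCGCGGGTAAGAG

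Col4a3 and Col4a4, chains of the type IV network of mature glomeruli, read higher in KO on average but not on every array. Col4a3 read -0.0084, 0.033, 0.035 and 0.48 in KO 1 to KO 4, against -0.47, -0.53, 0.030 and -0.41 in WT 1 to WT 4. Col4a4 read 0.075, -0.10 and 0.22 in KO 1, KO 2 and KO 4, against -0.56, -0.45, 0.49 and -0.50 in WT 1 to WT 4, without a value on KO 3. In both genes WT 3 stood apart from the other WT arrays, which lay between -0.56 and -0.41, and it reached the KO values. The difference was 0.48 ± 0.15 (SE, limma adjusted p = 0.127) for Col4a3 and 0.32 ± 0.25 (SE, limma adjusted p = 0.459) for Col4a4. Without KO 2 that of Col4a3 was 0.51 ± 0.17 (SE, limma adjusted p = 0.0597, 0.0406 to 0.554 over 22 alternatives to the 8-array fit). The other 2 probes of Col4a4 both gave -0.22, so its direction was not shared between probes. Col4a5 and Col4a6, the remaining type IV chains, had differences of 0.089 ± 0.14 (SE, limma adjusted p = 0.730) and -0.096 ± 0.12 (SE, limma adjusted p = 0.639).

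Col18a1, the proteoglycan collagen whose end fragment is endostatin, read -0.32, -0.66, -0.0097 and -0.26 in KO 1 to KO 4, against -0.67, -0.48, -0.57 and -0.55 in WT 1 to WT 4. KO 1, KO 3 and KO 4 lay above all WT arrays, and KO 2 lay near the lowest WT array. The difference was 0.26 ± 0.13 (SE, limma adjusted p = 0.256), with 0.20 on its second probe over all 8 arrays. Without KO 2 Col18a1 rose by 0.38 ± 0.10 (SE, limma adjusted p = 0.0302, 0.0302 to 0.432 over 22 alternatives to the 8-array fit). Under median centring it read -0.43, or -0.13 relative to all genes. Col15a1, its relative in the basement membranes of vessels and muscle, read -0.27, 0.28, -0.61 and -0.49 in KO 1 to KO 4, against -0.18, 0.40, 0.13 and 0.69 in WT 1 to WT 4. The difference was -0.53 ± 0.23 (SE, limma adjusted p = 0.190). Without KO 2 it was -0.72 ± 0.19 (SE, limma adjusted p = 0.0303, 0.0303 to 0.375 over 22 alternatives to the 8-array fit of Col15a1). Its 2 other probes gave 0.061, without a value on KO 3, and -0.17 over 8 arrays. Without KO 3 the brightest probe gave -0.42. The size and, for the probe at 0.061, the sign therefore depended on the probe.

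The basement membrane genes as a group, 8 collagens and 10 laminins, had 9 of 18 differences above 0 and a median of -0.00083, and the 21 tested interstitial collagens had 8 above 0, 13 below and a median of -0.11, beside -0.022 for all genes. Without KO 2 the medians were -0.016 and -0.17, beside -0.030 for all genes, with 4 of 18 basement membrane genes higher and 2 lower, and 1 of 21 interstitial collagens higher and 0 lower, where 10% of all genes were higher and 11.2% lower. Under median centring both medians were below 0, at -0.41 for the basement membrane genes and -0.44 for the interstitial collagens, beside -0.30. With Cy5 alone they were -0.015 and -0.43, beside -0.17. The medians of both lists by array overlapped between the groups, at 0.033 to 0.31 in KO against -0.065 to 0.22 in WT for the basement membrane genes, and at 0.067 to 0.41 in KO against 0.046 to 0.42 in WT for the interstitial collagens.

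**Figure D2:**
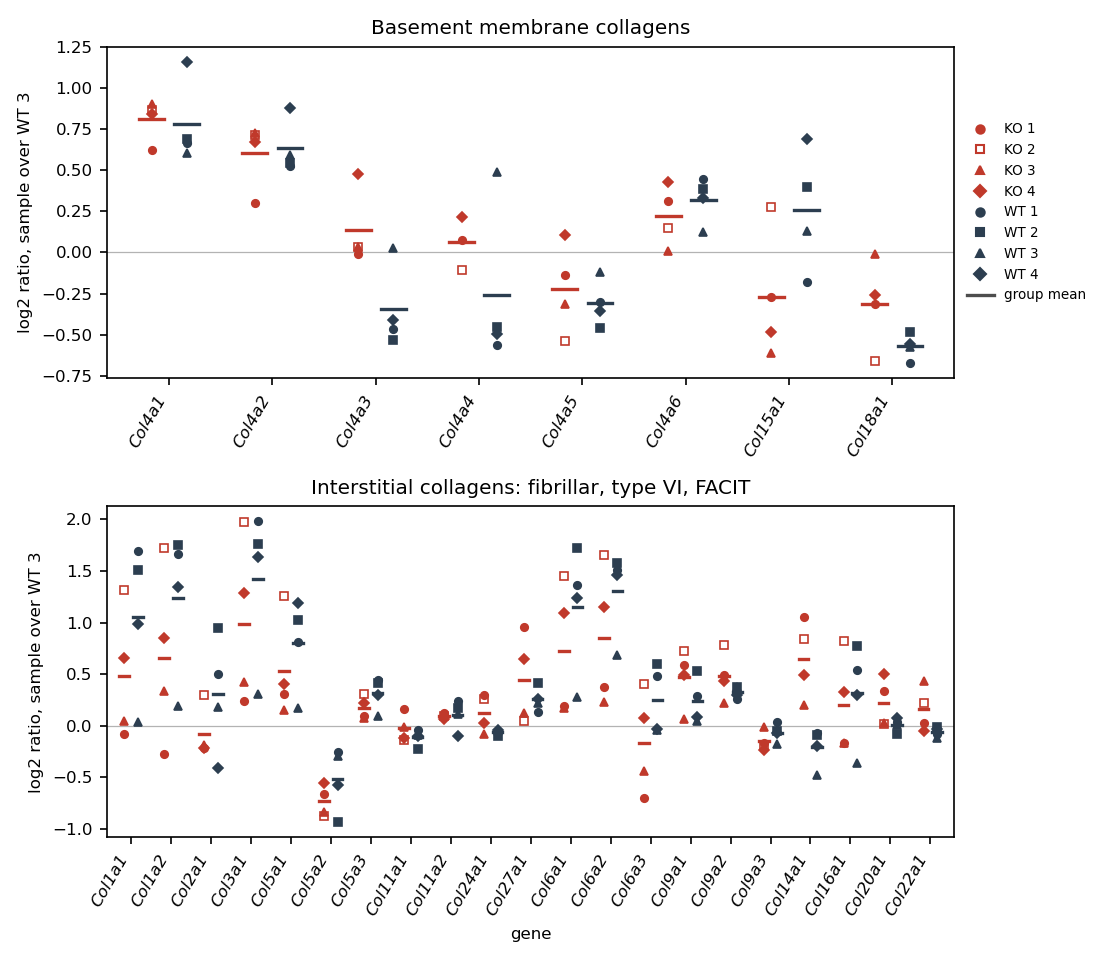
Log2 ratio to WT 3 RNA of collagen genes on each array, KO arrays in red on the left of each gene with KO 2 as an open square, WT arrays dark on the right, and a bar at each group's mean. Col14a1 is separated between the groups, Col4a1 and Col4a2 overlap, and Col1a1, Col1a2 and Col3a1 spread widely in both groups.

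With all 8 arrays, Col14a1 had the largest difference of the collagens tested, whereas without KO 2 those of Col1a2 (-0.93) and Col1a1 (-0.85) were larger in size and did not pass the test. Col14a1 encodes type XIV collagen, which binds along collagen fibrils and belongs to the FACIT collagens, those with interrupted helices. Col14a1 read 1.06, 0.84, 0.20 and 0.49 in KO 1 to KO 4, against -0.075, -0.090, -0.48 and -0.19 in WT 1 to WT 4. Every KO array lay above every WT array, KO 2 included. The difference was 0.86 ± 0.18 (SE, limma adjusted p = 0.105), a fold of 1.81. A second probe, without a value on KO 3, gave 0.69, where the first gave 1.01 without KO 3. Col14a1 rose without KO 2, by 0.79 ± 0.19 (SE, limma adjusted p = 0.0217, 0.00831 to 0.318 over 22 alternatives to the 8-array fit). It kept its sign under median centring at 0.64 and with Cy5 alone at 0.75. In the other FACIT collagens the groups overlapped. Col9a1 and Col9a2, type IX chains of cartilage, had differences of 0.23 ± 0.16 (SE, limma adjusted p = 0.405) and 0.16 ± 0.12 (SE, limma adjusted p = 0.430), Col22a1 had 0.22 ± 0.11 (SE, limma adjusted p = 0.267) and Col20a1 had 0.21 ± 0.12 (SE, limma adjusted p = 0.316). Col9a3, the third type IX chain, lay at -0.082 and Col16a1 at -0.11, or at -0.31 without KO 2 and 0.014 without KO 3. Of the 7 FACIT collagens, 5 lay above 0 with a median of 0.21, beside -0.022 for all genes. With Cy5 alone 4 of the 7 lay below 0 and the median was -0.038, beside -0.17.

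Type I, III and VI collagens, the main fibre and microfibril collagens of stroma, varied widely between arrays of 1 group. Col1a1 read -0.083, 1.31, 0.049 and 0.66 in KO 1 to KO 4, against 1.69, 1.51, 0.035 and 0.98 in WT 1 to WT 4. Col1a2 read -0.27, 1.73, 0.34 and 0.85 in KO 1 to KO 4, against 1.67, 1.75, 0.19 and 1.34 in WT 1 to WT 4. Col3a1 read 0.24, 1.97, 0.43 and 1.29 in KO 1 to KO 4, against 1.98, 1.76, 0.31 and 1.64 in WT 1 to WT 4. KO 1, KO 3 and WT 3 were low in all 3 genes, and KO 2, KO 4, WT 1, WT 2 and WT 4 were high. The differences were -0.57 ± 0.40 (SE, limma adjusted p = 0.402) for Col1a1, -0.58 ± 0.45 (SE, limma adjusted p = 0.453) for Col1a2 and -0.44 ± 0.44 (SE, limma adjusted p = 0.569) for Col3a1, smaller than the distance between the lowest and the highest array of either group. Without KO 2 they were -0.85, -0.93 and -0.77. Of the 3 tested type VI chains, Col6a1 and Col6a2 followed the same arrays, and Col6a3 was also low in KO 1, KO 3 and WT 3 but read 0.077 on KO 4 and -0.027 on WT 4. The differences of Col6a1, Col6a2 and Col6a3 were -0.43, -0.45 and -0.42, and -0.67, -0.72 and -0.61 without KO 2. None of these 6 genes passed the test in either fit. The median SD of these 6 genes within a group was 0.66 in KO and 0.67 in WT, against 0.19 in KO and 0.12 in WT for all genes.

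The Col1a2 window of RefSeq, at chr6:4505368-4505667 on the plus strand of GRCm38.p6, is shown as that of a stromal collagen to set beside the laminin windows, with matches to CCAAT or GGGCGG in capitals, 2 of each.
Col1a2 promoter: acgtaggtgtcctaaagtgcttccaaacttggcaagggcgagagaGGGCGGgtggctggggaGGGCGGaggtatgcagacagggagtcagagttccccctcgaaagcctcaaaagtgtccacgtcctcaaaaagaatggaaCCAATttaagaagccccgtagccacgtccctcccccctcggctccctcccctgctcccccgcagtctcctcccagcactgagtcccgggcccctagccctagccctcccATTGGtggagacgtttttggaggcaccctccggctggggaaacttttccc

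Markers of stromal cells varied on the same arrays. The median of collagens I, III and VI was 0.054, 1.55, 0.20 and 0.97 in KO 1 to KO 4, against 1.59, 1.65, 0.24 and 1.29 in WT 1 to WT 4. The median of the 14 tested stromal and smooth muscle markers was -0.072, 0.58, 0.14 and 0.37 in KO 1 to KO 4, against 0.73, 0.46, 0.021 and 0.43 in WT 1 to WT 4. Both were lowest in KO 1, KO 3 and WT 3. Of the 15 stromal markers, 12 were detected on every array, Foxd1 and Prrx1 on some arrays of each group, and Tbx18 on 1 KO array and 0 WT arrays. The 7 nephron progenitor markers had medians of -0.56, 0.59, 0.028 and 0.36 in KO 1 to KO 4, against 0.86, 0.93, 0.082 and 0.23 in WT 1 to WT 4, also with low values in KO 1, KO 3 and WT 3. The part of stromal or progenitor RNA in the collagen values was not tested, and in sorted bulk samples fewer cells of a type and less RNA per cell cannot be told apart.

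**Figure D3:**
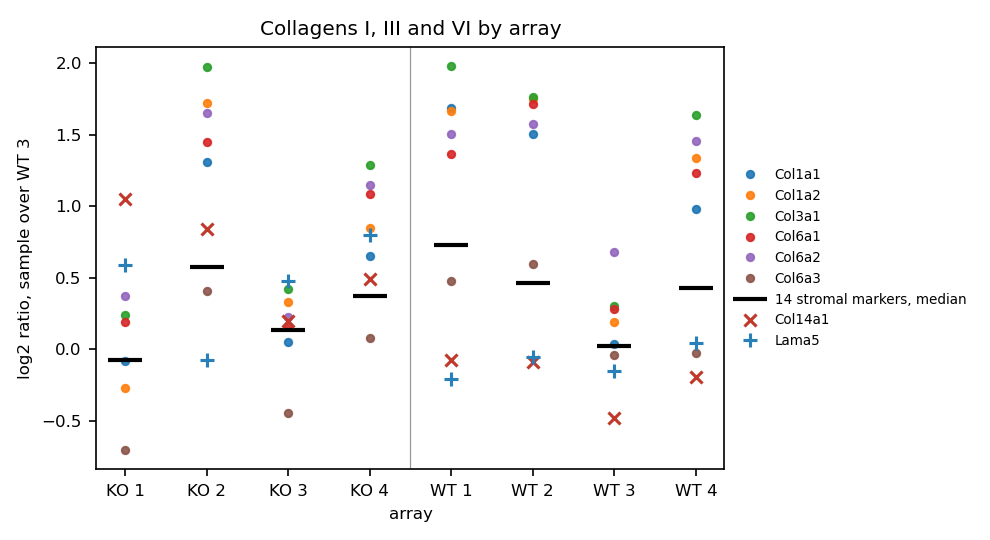
Log2 ratio to WT 3 RNA by array, KO arrays left and WT arrays right, for Col1a1, Col1a2, Col3a1, Col6a1, Col6a2 and Col6a3, with Col14a1, Lama5 and the median of 14 stromal markers drawn beside them. The 6 stromal collagens dip together in KO 1, KO 3 and WT 3 and are high in KO 2, WT 1 and WT 2, a pattern that Col14a1 and Lama5 do not follow.

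The other fibrillar collagens overlapped between the groups. Col5a1, a type V chain that sits within type I fibrils, read 0.31, 1.26, 0.15 and 0.41 in KO 1 to KO 4, against 0.81, 1.03, 0.17 and 1.19 in WT 1 to WT 4 and had a difference of -0.27 ± 0.27 (SE, limma adjusted p = 0.571), or -0.51 without KO 2. Its high arrays were again KO 2, WT 1, WT 2 and WT 4. Col2a1, the cartilage fibril collagen, was -0.38 ± 0.26 (SE, limma adjusted p = 0.391), Col5a2 -0.22 ± 0.16 (SE, limma adjusted p = 0.418) and Col27a1 0.18 ± 0.19 (SE, limma adjusted p = 0.582), the last of which was 0.32 without KO 2. Col24a1, a fibrillar collagen of bone, read 0.30, 0.25, -0.080 and 0.022 in KO 1 to KO 4, against -0.051, -0.095, -0.051 and -0.044 in WT 1 to WT 4, with 3 of 4 KO arrays above every WT array and a difference of 0.18 ± 0.10 (SE, limma adjusted p = 0.290). The 11 fibrillar collagens had 3 differences above 0 and 8 below, with a median of -0.22.

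The remaining collagens also overlapped between the groups. Col25a1, a transmembrane collagen, read 0.32, 0.21, 0.097 and 0.42 in KO 1 to KO 4, against -0.15, 0.18, -0.042 and 0.036 in WT 1 to WT 4, and its difference was 0.26 ± 0.10 (SE, limma adjusted p = 0.180). Its second tested probe, without a value on KO 3, gave 0.019, where the first gave 0.31 without KO 3. Col8a2, a short-chain collagen of basement membranes of the cornea, was -0.30 ± 0.23 (SE, limma adjusted p = 0.450), or -0.50 without KO 2, and its values were high on KO 2, WT 1 and WT 2 like those of the stromal collagens. The transmembrane collagens Col13a1 and Col23a1 had differences of -0.081 ± 0.12 (SE, limma adjusted p = 0.708) and -0.044 ± 0.093 (SE, limma adjusted p = 0.799). Col7a1, the anchoring fibril collagen of epithelia, read 0.84, -0.16, 0.24 and 1.05 in KO 1 to KO 4, against 0.98, 1.03, -0.27 and 0.43 in WT 1 to WT 4. Those values spread widely in both groups, with a difference of -0.048 ± 0.33 (SE, limma adjusted p = 0.946) that turned to 0.17 without KO 2.

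Integrins that bind laminin were measured on the same arrays as the laminins. Itga6, the alpha subunit of the hemidesmosome receptor and of a further laminin receptor, read -0.53, -0.91, -0.010 and -0.37 in KO 1 to KO 4, against -0.68, -0.84, -0.63 and -0.74 in WT 1 to WT 4. KO 1, KO 3 and KO 4 lay above all WT arrays and KO 2 below them, as for Lamb1 and Lama1. With KO 2 left out, KO lay above all WT arrays for 7 of 70 members and for 3473 of all 23343 genes. The difference was 0.27 ± 0.17 (SE, limma adjusted p = 0.349), and without KO 2 Itga6 rose by 0.42 ± 0.13 (SE, limma adjusted p = 0.0473). Over 22 alternatives to the fit of all arrays, which include the fit without KO 2, limma adjusted p ran from 0.0473 to 0.710. Under median centring Itga6 read -0.48, or -0.18 relative to all genes. Itga3, the alpha subunit of the main laminin receptor of kidney epithelia, read 0.93, 1.11, 0.59 and 0.88 in KO 1 to KO 4, against 1.04, 1.15, 0.83 and 1.34 in WT 1 to WT 4, with overlapping groups and a difference of -0.21 ± 0.14 (SE, limma adjusted p = 0.370), and its sign turned with Cy5 alone to 0.20. Itgb4, the hemidesmosome partner of Itga6, was -0.23 ± 0.13 (SE, limma adjusted p = 0.311). Itga7, a laminin receptor of muscle, was 0.037 ± 0.17 (SE, limma adjusted p = 0.913).

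Itgb1, the beta subunit shared by most matrix receptors, read -0.093, 0.14, -0.14 and -0.020 in KO 1 to KO 4, against -0.054, 0.024, 0.00013 and 0.12 in WT 1 to WT 4. The groups overlapped, and the difference was -0.052 ± 0.089 (SE, limma adjusted p = 0.754), though a second probe for Itgb1 gave -0.58. Among the collagen receptors, Itga1 read -0.58, 0.11, -0.46 and -0.16 in KO 1 to KO 4, against 0.068, 0.019, 0.18 and -0.084 in WT 1 to WT 4. KO 2 lay among the WT arrays, and the other 3 KO arrays lay below them. The difference was -0.32 ± 0.15 (SE, limma adjusted p = 0.223), and without KO 2 Itga1 fell by 0.44 ± 0.12 (SE, limma adjusted p = 0.0292). Its limma adjusted p ran from 0.0292 to 0.967 over 22 alternatives to the fit of all arrays, the fit without KO 2 included. A second Itga1 probe, without a value on KO 3, gave 0.61, the opposite sign to the -0.25 of the first probe without KO 3. The collagen receptors Itga2 and Itga11 had differences of -0.068 ± 0.083 (SE, limma adjusted p = 0.643) and 0.14 ± 0.21 (SE, limma adjusted p = 0.707), and that of Itga11 was -0.012 without KO 2.

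Integrins that bind fibronectin and other ligands with the same recognition motif gave 1 large value. Itga5, the alpha subunit of the fibronectin receptor, read 0.26, 0.93, 0.019 and 0.50 in KO 1 to KO 4, against 0.79, 0.87, 0.97 and 1.91 in WT 1 to WT 4. WT 4 lay far above all other arrays, and KO 2 lay within the range of the other WT arrays. The difference was -0.71 ± 0.27 (SE, limma adjusted p = 0.159). Without KO 2 Itga5 fell by 0.88 ± 0.26 (SE, limma adjusted p = 0.0431, 0.0431 to 0.301 over 22 alternatives to the 8-array fit). Without WT 4 the difference was -0.45, which did not pass. The 11 endothelial markers, all detected on every array, had medians of 0.29, 0.55, 0.45 and 0.26 in KO 1 to KO 4, against -0.17, -0.19, 0.16 and 1.09 in WT 1 to WT 4, also highest on WT 4, and their part in the Itga5 value was not tested.

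Itga8, the mesenchymal receptor for the bud's nephronectin that is needed for ureteric budding, read -0.40, 0.78, -0.18 and 0.54 in KO 1 to KO 4, against 1.01, 1.45, -0.20 and 0.26 in WT 1 to WT 4. It was low in KO 1, KO 3 and WT 3, the arrays on which the stromal and progenitor markers were low, and its difference was -0.45 ± 0.38 (SE, limma adjusted p = 0.492). Npnt, the gene of its ligand nephronectin, was -0.31 ± 0.16 (SE, limma adjusted p = 0.258). Itgb5, a beta subunit that pairs with Itgav, read -0.083, -0.078, -0.063 and -0.023 in KO 1 to KO 4, against 0.21, 0.26, -0.00056 and 0.16 in WT 1 to WT 4. All 4 KO arrays lay below all 4 WT arrays, with KO 4 and WT 3 close to each other. The difference was -0.22 ± 0.083 (SE, limma adjusted p = 0.162). Itgav itself was 0.010 ± 0.12 (SE, limma adjusted p = 0.968), with -0.18 on a second probe, and Itgb6, its epithelial partner, was -0.0074 ± 0.15 (SE, limma adjusted p = 0.983).

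Of the 4 tested leukocyte integrins, Itgal, Itgb2 and Itgb7 lay below 0 and the brightest Itgam probe above it. Itgal, the alpha subunit of a lymphocyte adhesion receptor, read -0.14, -0.11, -0.19 and -0.13 in KO 1 to KO 4, against 0.24, -0.045, 0.021 and -0.016 in WT 1 to WT 4. Every KO array lay below every WT array, and the difference was -0.19 ± 0.087 (SE, limma adjusted p = 0.211). The probe was dim, with a mean log2 Cy5 level of 6.37 in KO and 6.71 in WT. Itgb1bp2, well above background on 3 KO arrays and 1 WT array, had 6.42 and 6.39. A second Itgal probe did not pass the filter and gave -0.068. Itgb2, the beta subunit shared by the leukocyte integrins, read -0.25, 0.18 and -0.21 in KO 1, KO 2 and KO 4, against 0.24, 0.071, 0.16 and 0.072 in WT 1 to WT 4, without a value on KO 3, and its difference was -0.23 ± 0.12 (SE, limma adjusted p = 0.283). Itgb2 fell without KO 2, by 0.37 ± 0.099 (SE, limma adjusted p = 0.0347), a fit in which KO had values on 2 arrays. Its limma adjusted p ran from 0.0219 to 0.569 over 22 alternatives to the fit of all arrays, the fit without KO 2 included. The 13 macrophage and leukocyte markers had medians of -0.34, -0.14, -0.28 and -0.26 in KO 1 to KO 4, against 0.31, -0.11, 0.067 and -0.28 in WT 1 to WT 4. Their part in these values was not tested.

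Itgam, the alpha subunit of a macrophage receptor and partner of Itgb2, gave the largest difference of all members on its brightest probe. That probe read 1.87, 0.51, 1.48 and 2.98 in KO 1 to KO 4, against 0.52, 0.53, 0.63 and 0.58 in WT 1 to WT 4. KO 2 lay just below the WT arrays, and KO 1, KO 3 and KO 4 lay well above them. The difference was 1.15 ± 0.41 (SE, limma adjusted p = 0.149), and without KO 2 the probe rose by 1.55 ± 0.30 (SE, limma adjusted p = 0.00873). Its limma adjusted p ran from 0.00316 to 0.320 over 22 alternatives to the fit of all arrays, the fit without KO 2 included. The other tested Itgam probe gave -0.16. On every array, 80 other genes lay within 0.5 log2 units of the brightest Itgam probe, the nearest being Hexim2, a regulator of transcription elongation, and Oprm1, an opioid receptor. The values of that probe are therefore given as those of the probe only.

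Of the 22 tested integrins, 9 differences lay above 0 and 13 below, with a median of -0.060. The 14 alpha subunits had 8 above 0 and a median of 0.024, and of the 8 beta subunits 1 lay above 0 and 7 below, with a median of -0.16 beside -0.022 for all genes, of which 54.1% lay below 0. Without KO 2 all 8 beta subunits lay below 0, beside 54.5% of all genes, with 1 passing the test, Itgb2. Under median centring the median of the beta subunits was -0.39, beside -0.30 for all genes. Itgb7, a lymphocyte subunit, was -0.22 ± 0.12 (SE, limma adjusted p = 0.297), and Itgb3 and Itgb8 were 0.044 and -0.10.

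**Figure D4:**
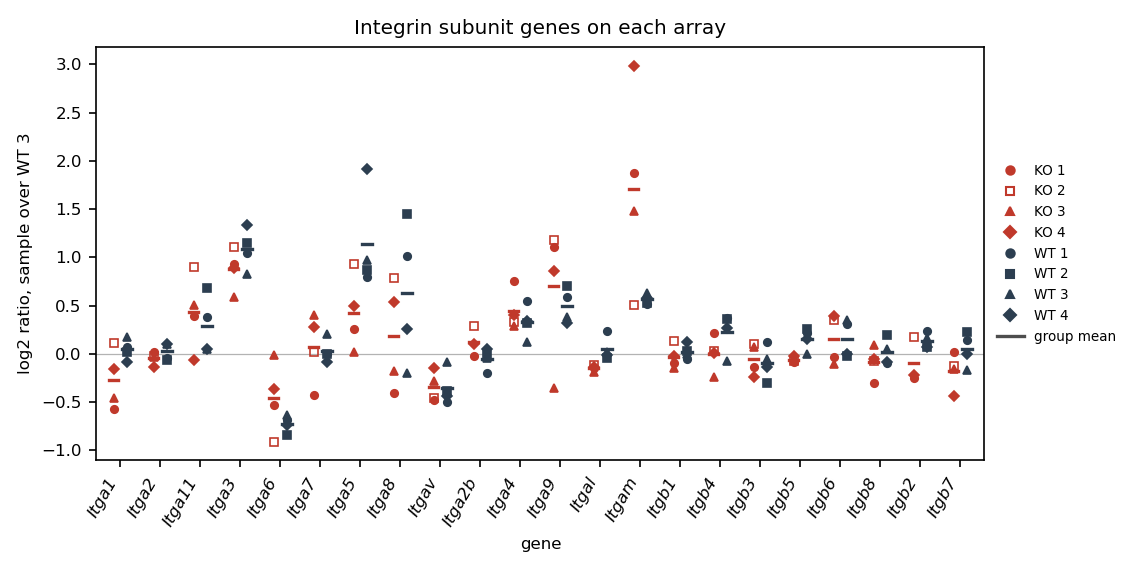
Log2 ratio to WT 3 RNA of integrin subunits on each array, KO arrays in red on the left of each gene with KO 2 as an open square, WT arrays dark on the right, and a bar at each group's mean. Itgal and Itgb5 separate narrowly, Itga5 has 1 high WT array, and Itgam has 3 high KO arrays with KO 2 beside the WT arrays.

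**Figure D5:**
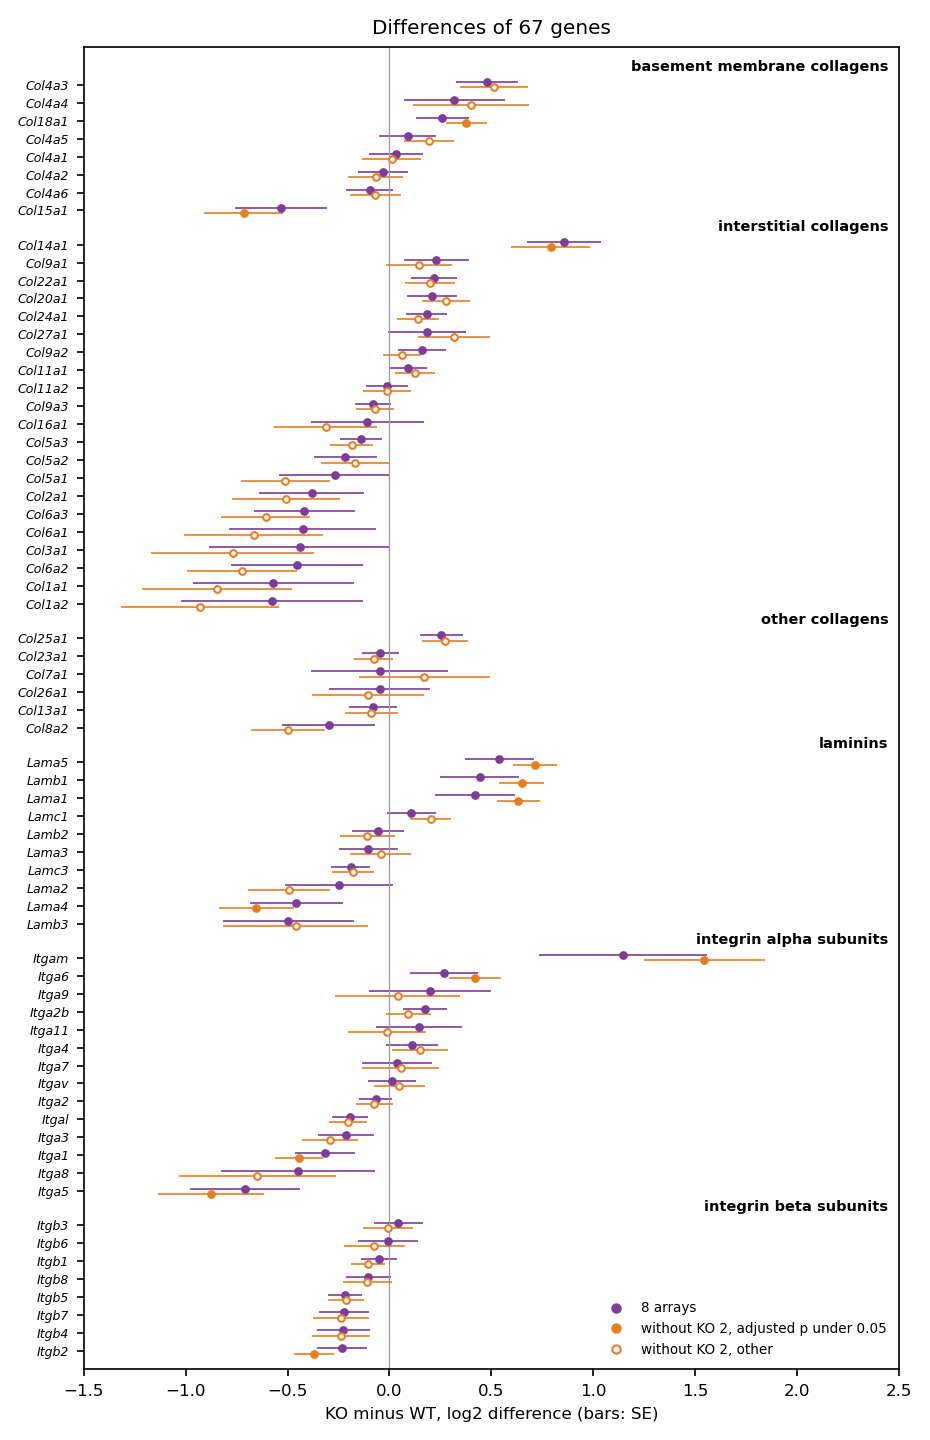
Log2 difference KO minus WT for the 67 tested collagens, laminins and integrins, with all 8 arrays in purple and without KO 2 in orange, where filled orange points passed an adjusted p of 0.05. Most differences lie within 0.5 of 0, Itgam, Col14a1 and Lama5 lie highest, and 12 points are filled.

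Genes that work with the matrix were read from 4 lists. Their counts without KO 2 stand beside 10% of all genes higher and 11.2% lower in that fit. Of 22 tested partners of basement membranes and other matrix genes (nidogens, perlecan, agrin, dystroglycan, elastin and others), 12 lay above 0 and 10 below. Their median was 0.086, and 0 passed with 8 arrays. Agrn, the basement membrane proteoglycan agrin, read 0.70, 0.13, 0.91 and 0.81 in KO 1 to KO 4, against -0.19, 0.0076, -0.18 and 0.092 in WT 1 to WT 4. All KO arrays lay above all WT arrays, and the difference was 0.70 ± 0.17 (SE, limma adjusted p = 0.108), but a second probe gave 0.072 and median centring gave -0.010. Dag1, the laminin receptor dystroglycan, read 0.078, 0.18, 0.31 and 0.17 in KO 1 to KO 4, against 0.46, 0.50, 0.67 and 0.50 in WT 1 to WT 4, every KO array below every WT array, with a difference of -0.35 ± 0.087 (SE, limma adjusted p = 0.112). Eln, the elastic fibre gene elastin, read -0.048, 0.22 and 0.0056 in KO 1, KO 2 and KO 4, against 0.80, 0.34, 0.47 and 0.50 in WT 1 to WT 4 and had a difference of -0.47 ± 0.13 (SE, limma adjusted p = 0.117). Without KO 2, Agrn was the 1 gene of that list to rise and 4 fell, Dag1, Eln, Fbln1 and Bcam.

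Of 25 tested genes of collagen processing, 7 lay above 0 and 18 below, with a median of -0.099, and 0 passed with 8 arrays. Serpinh1, the collagen chaperone of the endoplasmic reticulum, read -0.58, -0.61, -0.40 and -0.57 in KO 1 to KO 4, against -0.29, -0.15, -0.23 and -0.12 in WT 1 to WT 4. All KO arrays lay below all WT arrays, KO 2 lowest, and the difference was -0.34 ± 0.084 (SE, limma adjusted p = 0.112). Ppib, a prolyl isomerase that acts on collagen, was -0.19 ± 0.078 (SE, limma adjusted p = 0.174) and also did not overlap, whereas Plod2, a lysyl hydroxylase, was -0.48 ± 0.18 (SE, limma adjusted p = 0.162). Without KO 2, 0 of that list rose and 4 fell, Serpinh1, Crtap, Colgalt1 and P3h1, beside the 10% higher and 11.2% lower of all genes.

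Of 28 adhesion and hemidesmosome genes, 14 lay on each side of 0 with a median of 0.0086. Actn1, the actin crosslinker of adhesions, read 0.33, 0.94 and 0.46 in KO 1, KO 2 and KO 4, against 1.01, 1.22, 1.08 and 1.34 in WT 1 to WT 4, without a value on KO 3. Its KO and WT values did not overlap, and the difference was -0.58 ± 0.16 (SE, limma adjusted p = 0.115). Tns3, a tensin that links integrins to actin, was 0.28 ± 0.10 (SE, limma adjusted p = 0.149) with -0.19 on a second probe, and Ptk2, the focal adhesion kinase, was -0.29 ± 0.12 (SE, limma adjusted p = 0.181). Without KO 2, 0 rose and 3 fell, Actn1, Ptk2 and Rsu1, beside the 10% higher and 11.2% lower of all genes. In that fit Actn1 had KO values on KO 1 and KO 4 alone.

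Of 19 matrix proteases and their inhibitors, 7 lay above 0 and 12 below, with a median of -0.14. Timp3, an inhibitor of metalloproteases bound to the matrix, read 0.39, 0.44, 0.46 and 0.79 in KO 1 to KO 4, against -0.17, -0.13, 0.14 and 0.31 in WT 1 to WT 4. The KO arrays lay above all WT arrays, and the difference was 0.48 ± 0.13 (SE, limma adjusted p = 0.115), with -0.022 under median centring. Mmp11 and Mmp14, metalloproteases of the stroma and of the cell membrane, were -0.32 ± 0.10 (SE, limma adjusted p = 0.126) and -0.54 ± 0.22 (SE, limma adjusted p = 0.180). Without KO 2, Timp3 rose and 4 fell, Mmp11, Mmp14, Mmp2 and Mmp15, beside the 10% higher and 11.2% lower of all genes.

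The remaining 12 members did not pass the filter on low values, with no WT array well above background and 1 to 3 KO arrays above it. They were Col6a4, Col6a5, Col6a6, Col8a1, Col10a1, Col17a1, Col19a1, Col28a1, Itgad, Itgax, Itgb2l and Itgbl1. The arrays differ in how many of all spots stood above background, as given above, so no fold is given for these genes. Among the 3 tested genes that share only an integrin's name, Itgb1bp1, Itgb3bp and Itgb1bp2, the differences were -0.28, -0.28 and 0.15. For 17 members with more than 1 tested probe, all probes lay on the same side of 0 in 11.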

How the data were processed

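Total RNA of each sample was amplified, labelled and hybridised to a 2-colour Agilent array of 62976 spots, per the labels' protocols. The deposited scanner tables hold median spot and background intensity for each dye, per the file headers, with Agilent Feature Extraction 10.7.3.1 log10 ratios of Cy5 over Cy3. They hold no mean signals, so medians were used. The authors' series value table holds log10 ratios, which followed the scanner's ratios on each array (r at least 0.999999). Both deposited ratios, turned to log2, served only as alternatives.

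Intensities were corrected by normexp (offset 50) and loess within each array in limma 3.58.1 (R 4.3.3), with control spots at weight 0. Uneven and outlier spots were left out and spots of a probe averaged. A probe was tested where at least 4 of 8 arrays read Cy5 well above background and 3 or more arrays a group had a value, and the brightest probe stood for its gene. KO minus WT was fitted by lmFit and eBayes, with Benjamini-Hochberg adjustment over 23343 genes. Symbols came from RefSeq accessions (GRCm38.p6 table), matching 21717 of 37850 names, and 61 of 82 members had a promoter there. The number of arrays limits precision. Same-numbered KO and WT samples were not paired by the labels.

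The rule finds 83 genes, of which 1 is not reported here and stays out of all counts of members. Members and lists were chosen with earlier results of these data known. Named genes were up to 4 with the smallest p in each class, up to 3 in each partner list, and genes with known roles in bud, basement membrane or stroma. Other members were named after their values were seen. Whether samples came from separate animals is not stated, so the p-values rest on a spread between samples that may be technical. Of the steps, only the limma fit and its adjustment were tested on simulated data, drawn as independent normal log2 ratios with each gene's SD. Background correction, array scaling, filters, probe choice and an array that departs from its group were not simulated. Alternatives covered background correction, array scaling, filter, probe choice, variance model, array weights, replicate block and omitted arrays. No slide block was possible on 1 slide.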

Additional observations from a re-analysis of the deposited data

Results flagged for a closer look

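Among the 50 named genes, 7 values lay far from the other arrays of their group, by a gap that was most of the group's range, among 95 groups checked, where chance flags about 1 in 20 groups. On KO 4, Col4a3 read 0.48, against at most 0.035 on the other KO arrays, and Timp3 read 0.79. On KO 1, Col4a2 read 0.30, below the other KO arrays. On WT 4, Itga5 read 1.91 and Col4a1 read 1.16, both above the other WT arrays. On WT 3, the array that carried the same RNA in both dyes, Col4a4 read 0.49 where the other WT arrays lay at -0.45 or lower. On WT 2, Col24a1 read -0.095, the lowest WT value in a narrow range. The cause of these values was not tested.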

How the results depend on the processing

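With all 8 arrays, 2 genes passed the test. The count was 1 without the normexp offset, without background subtraction and with the mean over probes, 0 under median centring, Cy5 alone and the replicate block, 4 without the filter, 5 with scaling between arrays, 11 with a robust intensity trend, 4542 with array weights and 5510 without KO 2 and KO 3. It ranged from 1 to 4947 when 1 array was left out, with 4947 without KO 2 and 8 without KO 3. The count of members was 0 with 8 arrays, 6 with array weights, 10 without KO 2 and KO 3, and 0 to 12 when 1 array was left out, 12 without KO 2. Deviations from the group mean correlated between same-numbered KO and WT samples at -0.24, 0.051, 0.11 and -0.025. With 4 samples a group, these values cannot decide whether the numbers pair the samples. The replicate block left 0 members past the threshold.

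Under median centring the medians were -0.38 for collagens, -0.44 for laminins, -0.34 for integrins, -0.41 for basement membrane genes, -0.44 for interstitial collagens and -0.40 for basement membrane collagens. With Cy5 alone they were -0.26 for integrins and -0.43 for interstitial collagens. These 6 lists were compared under 22 alternatives, and their other 124 medians moved by less than the spread between replicates.

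Of values of the 50 named genes, 1002 kept their sign and their side of the threshold. A further 52 kept their sign and passed the threshold only in the alternative, and 45 turned in sign. Under median centring these were Col18a1 -0.43, Lama5 -0.13, Lamb1 -0.33, Lama1 -0.30, Col4a1 -0.56, Lamc1 -0.57, Itga6 -0.48, Itgav -0.29, Tns3 -0.11, Agrn -0.010, Timp3 -0.022 and Dot1l -0.18. With Cy5 alone they were Col20a1 -0.038, Col4a1 -0.017, Lamb2 0.078, Itga3 0.20 and Itgb6 0.0038. With the mean over probes they were Col4a4 -0.089, Itga1 0.016 and Itgav -0.085, and with scaling between arrays Col4a1 -0.10. Without KO 2 and KO 3, Col4a1 read -0.045 and Itgb6 0.023. Itgb6 also read 0.021 without the offset, 0.0033 without background subtraction, and 0.14 with the scanner's ratio and with the series value table. With 1 array left out, Col13a1 ranged from -0.17 to 0.0030, Col23a1 from -0.086 to 0.0073, Col4a1 from -0.027 to 0.16, Col4a2 from -0.072 to 0.069, Itgav from -0.053 to 0.10, Itgb6 from -0.087 to 0.079 and Lamb2 from -0.13 to 0.050. Members outside the 50 were not counted, and among them Col7a1, Itga11 and Itgb3 turned without KO 2 and Col16a1, Col7a1 and Itga7 without KO 3. The causes were not tested. Signal over background limited 12 members, which were not tested.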
